A study of Homo sapiens with 6 samples.

Results

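The 35 genes described here encode proteins of mitosis and the spindle, from the CDK1 and cyclin B kinase to the kinesins, the checkpoint proteins and the factors that split the chromosomes. They were taken as a fixed list of symbols and not from the measured values, but with earlier results of these data known. All 35 were measured, among 19775 genes in all. RNA came from MV4;11 cells, a line of human acute myeloid leukaemia with an MLL-AF4 rearrangement, grown in serum-containing RPMI-1640 medium. Wells in triplicate were kept for 3 h with the solvent DMSO (3 arrays) or with 25 nM CA (3 arrays). By the title of the series CA is cortistatin A, an inhibitor of the Mediator kinases CDK8 and CDK19. Single-colour Affymetrix U133 Plus 2.0 arrays were read as deposited log2 RMA values, so a difference of 1 on this scale is a doubling. The data cover a single cell line, dose and time, and the labels do not say that the wells came from separate cultures, so the spread behind each p-value is that between these samples and may be technical.

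Mitosis begins when CDK1 bound to cyclin B becomes active. Polo-like and Aurora kinases then build the spindle, kinesins move chromosomes and microtubules along it, and the spindle checkpoint holds back the anaphase-promoting complex until every kinetochore is attached. Most of these genes are transcribed in a wave late in the cell cycle, through promoters that carry CCAAT boxes for the factor NF-Y and a cell cycle homology region (CHR), which the DREAM and B-MYB-MuvB complexes bind, together with FOXM1. In proliferating leukaemia cells their RNA levels therefore follow the share of cells that are about to divide.

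The promoters show what the genes share beyond their role. RefSeq (GRCh38.p14) gave a promoter window, 250 bases before to 50 after the gene's start, for 28 of the 35 genes, and the first start listed was used for each gene. The upstream 250 bases are printed 5′ to 3′ on the gene's strand for BUB1B, KIF11 and MKI67, which had among the smallest p-values of the 35, and for CCNB1, CDK1 and PLK1, the core kinases of mitotic entry. Capitals mark CCAAT or its reverse complement ATTGG, and the CHR word TTTGAA or its reverse complement TTCAAA. No other RefSeq gene overlaps any of these stretches.
BUB1B (chr15:40160819-40161068, plus strand): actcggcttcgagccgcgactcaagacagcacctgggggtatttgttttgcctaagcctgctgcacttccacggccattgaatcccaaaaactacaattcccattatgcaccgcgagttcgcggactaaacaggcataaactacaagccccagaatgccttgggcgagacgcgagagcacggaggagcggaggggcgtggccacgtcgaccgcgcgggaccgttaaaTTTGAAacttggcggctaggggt
KIF11 (chr10:92592880-92593129, plus strand): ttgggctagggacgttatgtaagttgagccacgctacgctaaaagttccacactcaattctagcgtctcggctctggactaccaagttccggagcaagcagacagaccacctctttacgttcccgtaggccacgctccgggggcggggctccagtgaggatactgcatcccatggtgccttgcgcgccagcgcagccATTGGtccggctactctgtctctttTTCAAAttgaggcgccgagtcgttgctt
MKI67 (chr10:128126424-128126673, minus strand): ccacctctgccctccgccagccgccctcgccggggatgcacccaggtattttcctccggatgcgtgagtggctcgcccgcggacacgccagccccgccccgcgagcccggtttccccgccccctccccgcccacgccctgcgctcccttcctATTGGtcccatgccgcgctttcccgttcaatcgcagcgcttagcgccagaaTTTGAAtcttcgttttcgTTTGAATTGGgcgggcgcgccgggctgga
CCNB1 (chr5:69166900-69167149, plus strand): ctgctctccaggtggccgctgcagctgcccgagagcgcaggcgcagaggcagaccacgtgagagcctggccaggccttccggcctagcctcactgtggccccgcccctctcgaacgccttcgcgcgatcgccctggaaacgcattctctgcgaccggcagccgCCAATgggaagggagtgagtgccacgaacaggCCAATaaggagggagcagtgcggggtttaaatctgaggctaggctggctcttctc
CDK1 (chr10:60778081-60778330, plus strand): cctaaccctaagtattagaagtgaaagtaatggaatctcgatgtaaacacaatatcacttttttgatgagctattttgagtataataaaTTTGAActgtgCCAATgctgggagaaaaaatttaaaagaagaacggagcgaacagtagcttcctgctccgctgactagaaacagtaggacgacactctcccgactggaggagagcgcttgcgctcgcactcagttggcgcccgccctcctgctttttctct
PLK1 (chr16:23678639-23678888, plus strand): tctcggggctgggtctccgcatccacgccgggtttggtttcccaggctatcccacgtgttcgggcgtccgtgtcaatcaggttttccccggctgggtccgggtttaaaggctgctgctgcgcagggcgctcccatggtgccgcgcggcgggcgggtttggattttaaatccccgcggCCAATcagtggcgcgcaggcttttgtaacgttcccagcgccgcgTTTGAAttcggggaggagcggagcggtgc

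In KIF11 and PLK1 the CHR word begins 28 and 29 bases before the start, with a CCAAT box further upstream, 53 and 73 bases before it. BUB1B has the CHR word at 23 bases and no CCAAT in the window, whereas CCNB1 has CCAAT boxes at 87 and 55 bases and no TTTGAA. MKI67 has 2 of each word, and one ATTGG there shares bases with a TTTGAA. The first listed start of CDK1 has both words, 161 and 150 bases upstream. Over the 28 windows, searched on both strands, TTTGAA was found in 19 (67.9%), CCAAT in 22 (78.6%) and both in 17 (60.7%). Among all 27305 promoters of the same length the shares were 15.4%, 35.7% and 6.08%. For the 18 S phase genes with a window they were 5.56% (TTTGAA) and 72.2% (CCAAT). A match is a run of letters and was not shown here to be a bound site.

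**Figure D1:**
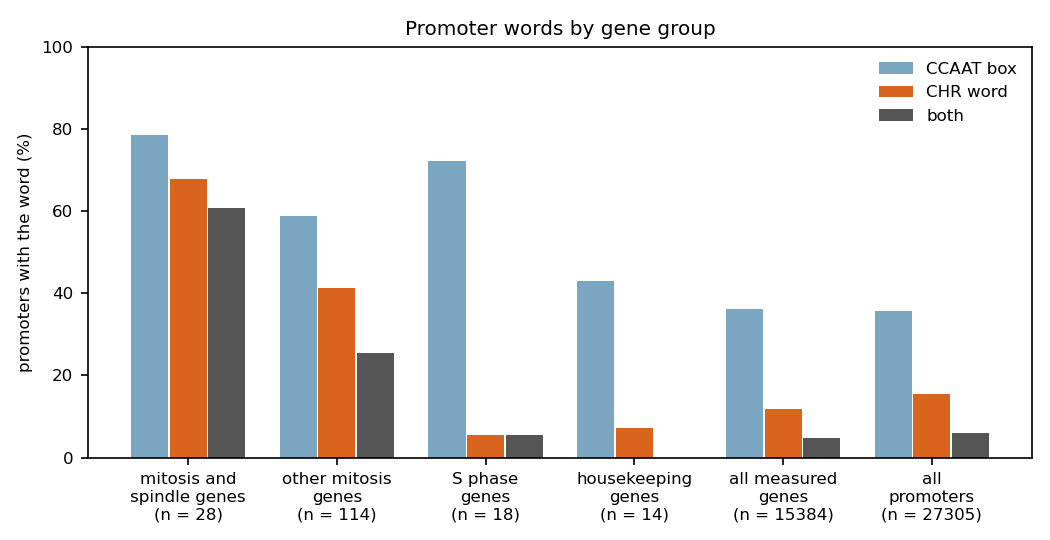
Share of promoter windows (percent, bar height) that hold CCAAT, the CHR word TTTGAA or both, by gene group, with the number of windows under each group. TTTGAA was found in 67.9% of the windows of the mitosis and spindle genes and in 15.4% of all promoters.

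The comparison asked whether 3 h of Mediator kinase inhibition altered the RNA of the mitotic machinery. None of the 35 genes passed the test over all genes (limma adjusted p under 0.05; the smallest was 0.328), where 115 of 19775 genes, 0.582%, were called. Before adjustment 2 of the 35 had a limma p under 0.05, BUB1B and BUB3, both higher (5.71%), against 12.6% of all genes and 6.81% for higher values alone. The cortistatin A and DMSO arrays did not overlap for 6 of the 35 (17.1%), 2 higher and 4 lower, against 19.4% of all genes (10.2% higher and 9.22% lower). All 35 lay above the median of all probe sets. Among all genes above it 24.97% did not overlap and 14.95% had an unadjusted limma p under 0.05. Changes were cortistatin A minus DMSO, and 17 genes stood above 0 and 18 below, with a median of -0.0011 beside 0.0065 for all genes. In RNA from whole cultures, fewer cells near division and less RNA per dividing cell cannot be told apart.

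Sizes were small. Log2 changes ran from -0.15 (KIF11) to 0.20 (MKI67), and 5 of the 35 genes (14.3%) lay more than 0.1 from 0, against 38.5% of all genes and 35.2% of genes above the median of all probe sets. All 35 genes had a mean above that median, 3.74, which is not a detection limit. PLK1, with a mean of 5.66, lay below the fibroblast marker COL1A1 (6.01 to 6.19). The median absolute change was 0.041, against 0.076 over all genes and 0.070 over those above the median. Median standard errors were 0.057, 0.077 and 0.065 in the same order, so both backgrounds were noisier. In 16 housekeeping genes the median absolute change was 0.040, and 12.5% lay more than 0.1 from 0. It was 0.050 (21.5%) in 130 other mitosis genes and 0.052 (28.6%) in 21 S phase genes, both described below. The 95% limma interval of the change, unadjusted for the number of genes, lay within 1.2-fold in either direction for 32 of the 35 genes. The exceptions were MKI67, with an upper bound of 0.43 (1.34-fold), BUB3, with an upper bound of 0.27, and KIF11, with a lower bound of -0.31. These intervals are for the brightest probe set of each gene. Other probe sets of CDK1, CENPF, CENPN and KIF23, which are among the 32, had larger changes, given below. With the standard errors of these genes (median 0.057) a change of 0.39 on the log2 scale, or 1.31-fold, would have been needed for a call at the median, and 0.31 to 0.65 across the genes. Smaller changes could not be called at this precision.

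**Figure D2:**
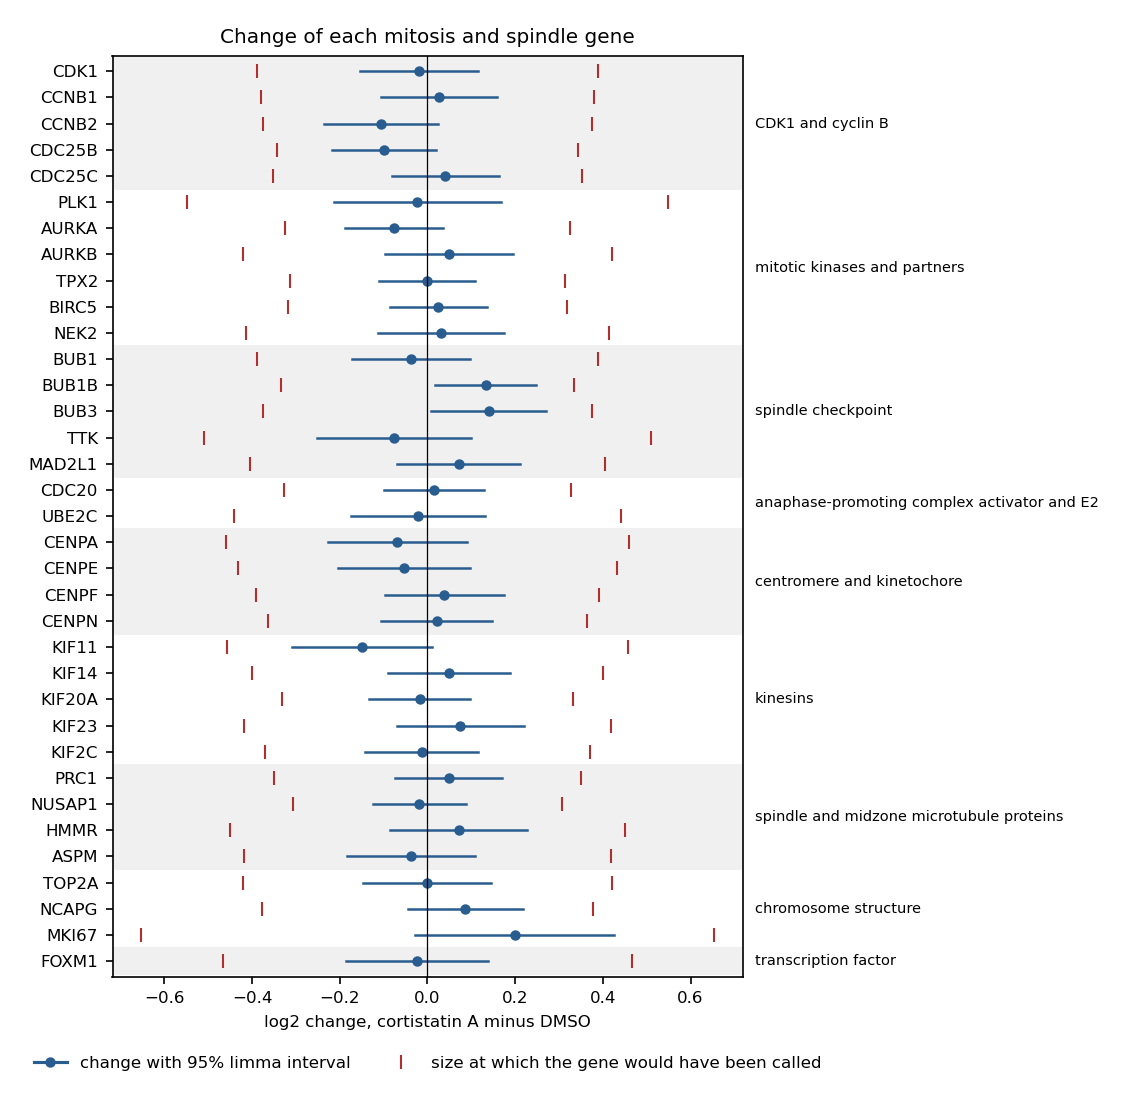
Log2 change (cortistatin A minus DMSO, x axis) of each of the 35 genes, grouped by role, as points with 95% limma intervals (n = 3 arrays per group); ticks mark the size at which each gene would have been called. All points lie between -0.15 and 0.20, inside their ticks.

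The genes of the mitotic entry kinase came first. CDK1, its catalytic subunit, read 10.98, 11.03 and 11.02 on DMSO replicates 1, 2 and 3 (the order kept below) and 10.98, 10.92 and 11.07 with cortistatin A, a change of -0.02 ± 0.06 (SE; limma adjusted p = 0.923). The groups overlap, and the highest and lowest values are both cortistatin A arrays. CCNB1, the cyclin that activates it, read 9.86, 9.88 and 9.82 in DMSO and 9.90, 9.81 and 9.94 with the drug (0.03 ± 0.06, limma adjusted p = 0.891), again with overlapping groups. CCNB2, its Golgi-associated relative, read 10.48, 10.47 and 10.36 in DMSO and 10.32, 10.36 and 10.32 with the drug (-0.11 ± 0.05, limma adjusted p = 0.495). Here the lowest DMSO array and the highest cortistatin A array nearly touch. The phosphatases that remove the inhibitory phosphates of CDK1 had changes of opposite sign, with 95% intervals that span 0 and overlap each other. CDC25B read 8.18, 8.13 and 8.22 in DMSO and 8.08, 8.06 and 8.10 with cortistatin A, without overlap (-0.10 ± 0.05, limma adjusted p = 0.475), and CDC25C was at 0.04 ± 0.05 with overlap (limma adjusted p = 0.802). The difference between them was not tested.

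Other probe sets of CDK1 gave larger values than the brightest. They stood at -0.20 ± 0.06 and -0.19 ± 0.07, neither overlapping between the groups, with limma adjusted p = 0.323 and 0.388 over all 41091 single-gene probe sets, while a dim further one was at -0.03. Changes in transcript form and differences in hybridisation between probe sets cannot be told apart in these summarised values.

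Among the mitotic kinases, PLK1, which drives centrosome maturation and entry, had the widest spread in DMSO. It read 5.81, 5.67 and 5.53 in DMSO and 5.60, 5.67 and 5.67 with cortistatin A (-0.02 ± 0.08, limma adjusted p = 0.933). The cortistatin A values lie inside the DMSO range. AURKA, the centrosomal Aurora kinase, read 9.43, 9.42 and 9.45 in DMSO and 9.32, 9.35 and 9.39 with the drug (-0.08 ± 0.05, limma adjusted p = 0.570). All 3 drug arrays lie below all 3 DMSO arrays, and its other probe sets, both above the median, were at -0.09 and -0.10. TPX2, which activates AURKA on spindle microtubules, was at -0.0011 ± 0.046. AURKB and BIRC5, the kinase and the survivin subunit of the chromosomal passenger complex, were at 0.05 and 0.03, and NEK2, a kinase of centrosome separation, at 0.03. The groups of these 4 genes overlap.

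The spindle checkpoint held the 2 genes with the smallest p-values. BUB1B, which encodes the checkpoint protein BUBR1, read 9.85, 9.83 and 9.88 in DMSO and 9.99, 9.94 and 10.02 with cortistatin A, a change of 0.13 ± 0.05 or 1.10-fold (95% interval 0.02 to 0.25, limma adjusted p = 0.328). BUB3, the kinetochore partner of BUB1 and BUBR1, read 11.40, 11.43 and 11.31 in DMSO and 11.52, 11.49 and 11.56 with the drug, or 0.14 ± 0.05 (95% interval 0.01 to 0.27, limma adjusted p = 0.363). For both genes every cortistatin A array lay above every DMSO array. Their call depended on the variance model. With trend and robust variances limma called both (adjusted p = 0.0328 for BUB1B and 0.0231 for BUB3), with 762 genes called in all, and over the alternatives the adjusted p ran from 0.0328 to 0.820 and from 0.0231 to 0.699. BUB3 had 5 further probe sets, all above the median of all probe sets. Of these, 4 stood above 0, from 0.10 to 0.28, with groups that did not overlap, and the dimmest was at -0.02. The largest, 0.28 ± 0.06, had an unadjusted limma p of 0.00155 and an adjusted p of 0.161 over all single-gene probe sets.

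The other 3 checkpoint genes had overlapping groups. BUB1, the checkpoint kinase, read 9.11, 9.13 and 9.12 in DMSO and 9.11, 9.00 and 9.14 with cortistatin A (-0.04 ± 0.06, limma adjusted p = 0.836), so 1 drug array was low and the other two lay level with DMSO. TTK, the kinase MPS1 at the head of the checkpoint, read 8.17, 8.24 and 8.01 in DMSO and 8.06, 8.01 and 8.12 with the drug (-0.08 ± 0.07, limma adjusted p = 0.728). MAD2L1, which binds CDC20 in the checkpoint complex, read 10.50, 10.52 and 10.46 in DMSO and 10.56, 10.48 and 10.64 with the drug (0.07 ± 0.06, limma adjusted p = 0.680), and its other probe sets were at -0.08 and -0.07.

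CDC20, the activator of the anaphase-promoting complex that the checkpoint restrains, had overlapping groups. It read 9.94, 9.95 and 10.00 in DMSO and 9.96, 9.97 and 10.01 with cortistatin A (0.01 ± 0.05, 95% interval -0.10 to 0.13, limma adjusted p = 0.930). UBE2C, the ubiquitin-conjugating enzyme of the same complex, was at -0.02 ± 0.06. At the centromere, CENPF, an outer kinetochore protein, read 8.44, 8.30 and 8.39 in DMSO and 8.37, 8.44 and 8.44 with the drug (0.04 ± 0.06, limma adjusted p = 0.832). A further CENPF probe set was at 0.23 ± 0.07 without overlap (limma adjusted p = 0.338 over all single-gene probe sets). The centromeric histone CENPA (-0.07), the kinetochore motor CENPE (-0.05) and CENPN (0.02), which binds the CENPA nucleosome, had overlapping groups. Other probe sets of CENPN above the median were at -0.15 and -0.23.

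KIF11, the motor that pushes the spindle poles apart, had the lowest change of the 35 genes. It read 8.82, 8.87 and 8.85 in DMSO and 8.81, 8.60 and 8.68 with cortistatin A (-0.15 ± 0.07, limma adjusted p = 0.421). The groups are separated only by the width between 8.82 and 8.81, and the other two drug arrays are lower. KIF20A, a kinesin of the central spindle, read 8.09, 8.10 and 8.10 in DMSO and 8.05, 8.05 and 8.13 with the drug (-0.02 ± 0.05, limma adjusted p = 0.913). KIF23, which bundles microtubules for cytokinesis, read 7.19, 7.21 and 7.11 in DMSO and 7.19, 7.20 and 7.34 with the drug (0.07 ± 0.06, limma adjusted p = 0.671). Its single high value is on cortistatin A replicate 3, and its other probe set, with a mean of 4.08, was at -0.30 ± 0.11. KIF14 (0.05), also of cytokinesis, and KIF2C (-0.01), which takes microtubules apart at centromeres, had overlapping groups.

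Genes of microtubule and chromosome proteins had changes of at most 0.20 in size. HMMR, a spindle assembly factor, read 10.66, 10.73 and 10.54 in DMSO and 10.74, 10.67 and 10.74 with cortistatin A (0.07 ± 0.07, limma adjusted p = 0.714). PRC1, which bundles midzone microtubules, was at 0.05, NUSAP1 at -0.02 and ASPM, a spindle pole protein, at -0.04, all with overlap. TOP2A, the topoisomerase that untangles sister chromatids, read 11.09, 11.03 and 11.17 in DMSO and 11.07, 11.04 and 11.16 with the drug (-0.0018 ± 0.061, limma adjusted p = 0.994). NCAPG, a condensin subunit, read 9.00, 9.10 and 9.05 in DMSO and 9.15, 9.08 and 9.18 with the drug (0.09 ± 0.05, limma adjusted p = 0.577).

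MKI67, the Ki-67 proliferation antigen that coats mitotic chromosomes, had the highest change and the widest error. It read 8.38, 8.25 and 8.24 in DMSO and 8.36, 8.42 and 8.68 with cortistatin A (0.20 ± 0.09, limma adjusted p = 0.456). The groups overlap, and the value rests on cortistatin A replicate 3, without which it was 0.10. It turned to -0.02 once an index of RNA integrity and labelling, taken from the 3′ and 5′ control probe sets of beta-actin and GAPDH, entered the fit as a covariate. The index did not overlap between the groups, so its part and that of the drug in the MKI67 value cannot be told apart. The 3 other probe sets of MKI67 were at 0.16, 0.05 and -0.01. FOXM1, the transcription factor that acts on many of these promoters, read 7.36, 7.30 and 7.33 in DMSO and 7.25, 7.23 and 7.43 with the drug (-0.02 ± 0.07, limma adjusted p = 0.919), so the cortistatin A arrays lie on either side of DMSO.

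**Figure D3:**
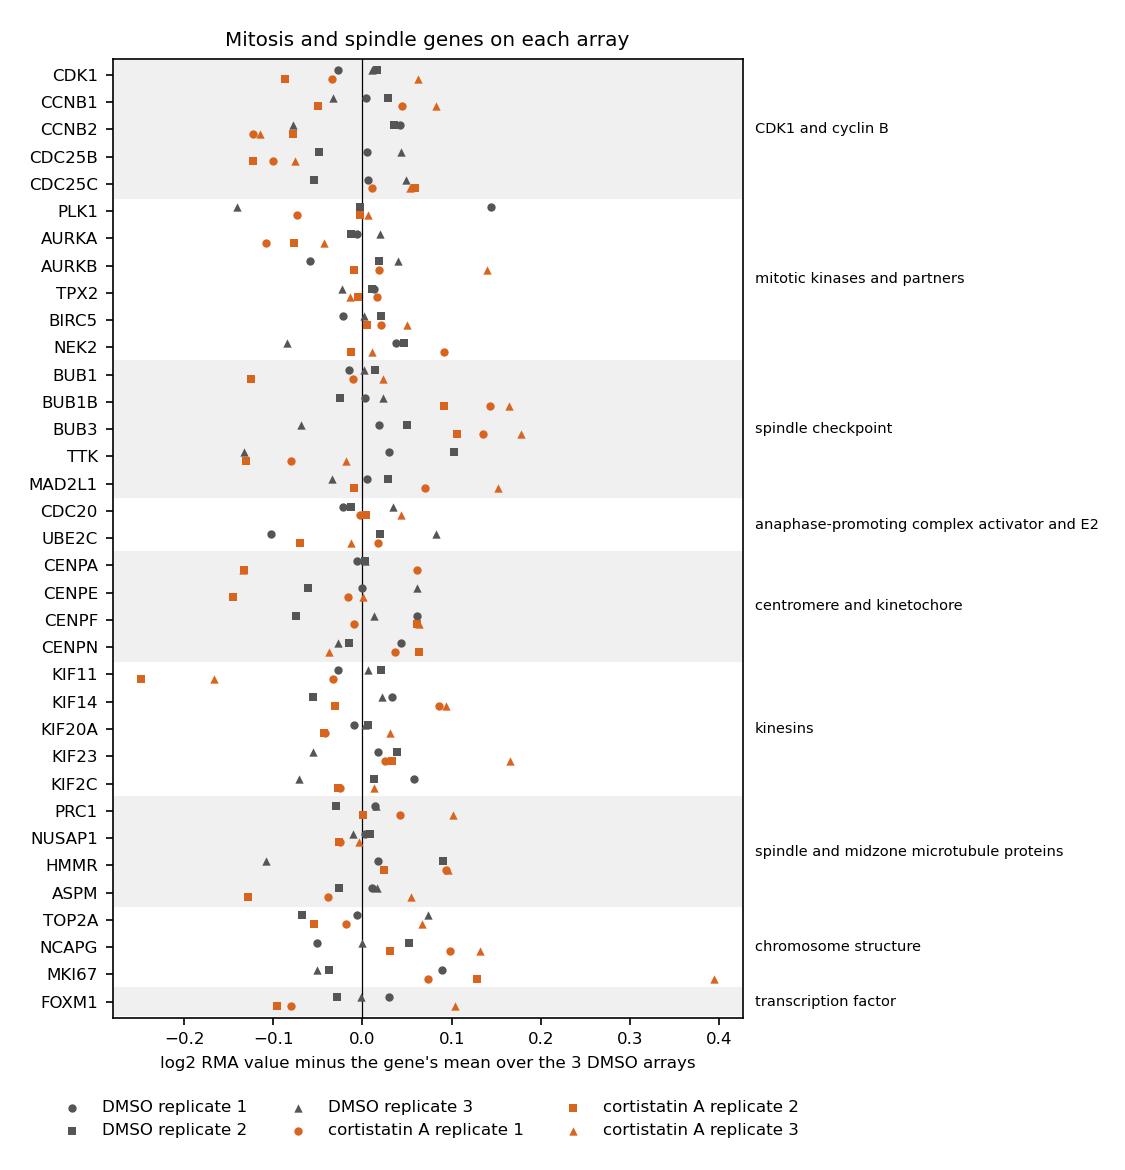
Level of each of the 35 genes on each array, as the log2 RMA value minus the gene's mean over the 3 DMSO arrays (x axis), by role. Cortistatin A replicate 3 (orange triangles) is the highest drug array for 27 of the 35 genes, and its MKI67 value is the point farthest to the right.

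The cortistatin A arrays differed among themselves in a shared direction across these genes. Replicate 3 was the highest of the 3 drug arrays for 27 of the 35 genes (77.1%, against 41.0% of all genes), and replicate 2 the lowest for 24 (68.6%, against 35.7%). The mean deviation of the 35 genes from their own means was 0.044 on replicate 3, -0.035 on replicate 2 and 0.0035 on replicate 1, and it lay between -0.015 and 0.0056 on the DMSO arrays. The range among the drug arrays thus exceeded the median change between the groups. Without replicate 3 the median change of the 35 genes was -0.0028, and without replicate 2 it was 0.014. Limma then called 0 and 3 of all 19775 genes, none of them among the 35, so the absence of calls in these fits says nothing about the 35 genes. The index of RNA integrity and labelling, the 3′ minus 5′ signal averaged over the control probe sets of beta-actin and GAPDH, was 1.37 to 1.46 on the DMSO arrays and 1.504, 1.505 and 1.621 on cortistatin A replicates 1, 2 and 3 (exact permutation p = 0.1, two-sided; no smaller p is possible with 3 arrays against 3). With this index as a covariate the median change of the 35 genes was -0.03, beside -0.0017 for all genes. Limma called 0 of the 19775 genes in that fit, where 9.13% had an unadjusted p under 0.05, so the 0 called among the 35 is no result about them. The median standard error of the 35 genes was 0.094 there, against 0.057 in the main fit. The index did not overlap between the groups, so its part and that of the drug cannot be told apart. The part of the index in the spread of these genes was not tested.

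Multiple probe sets allowed a further look at how firm the small values are. The 35 genes had 79 single-gene probe sets, 69 of them above the median. Of the 21 genes with more than 1 bright probe set, 5 had all of these above 0 (CCNB1, CENPF, HMMR, KIF14 and NCAPG), 6 had all below 0 (ASPM, AURKA, BUB1, CDK1, KIF2C and NUSAP1) and 10 had mixed signs. Of the 79 probe sets, 0 passed over all single-gene probe sets, where 0.18% were called. Before adjustment 8 had a limma p under 0.05 (10.1%), 4 higher and 4 lower, against 11.3% of all single-gene probe sets (5.56% higher and 5.73% lower). The groups did not overlap for 16 of the 79, and for 17.6% of all single-gene probe sets.

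**Figure D4:**
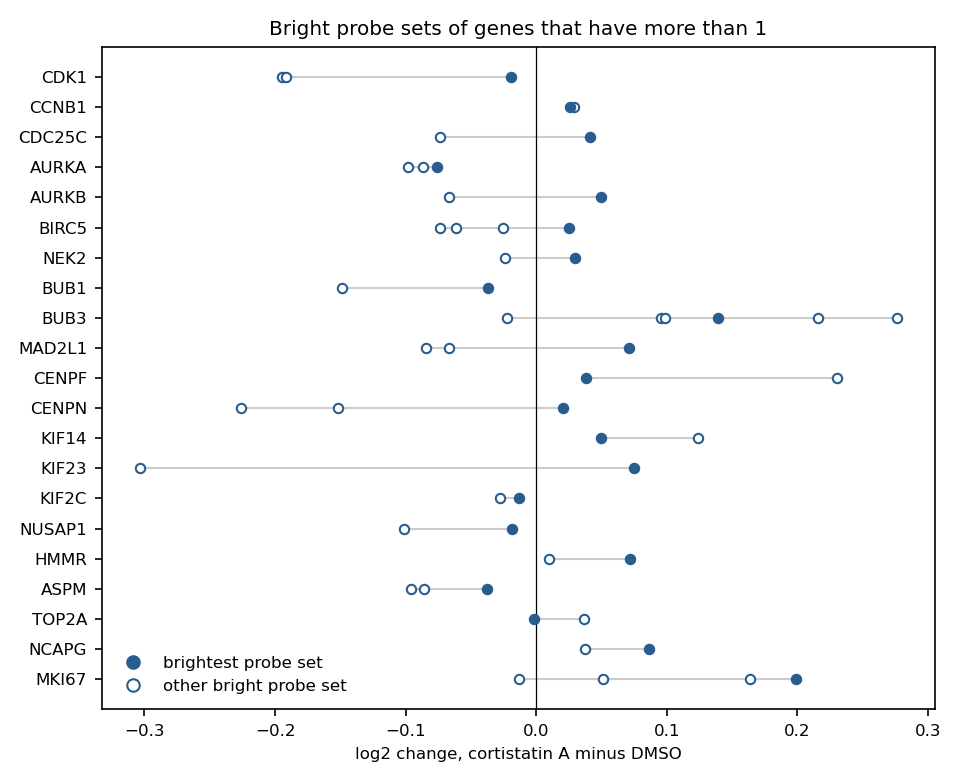
Log2 change (cortistatin A minus DMSO, x axis) of every probe set above the median of all probe sets, for the 21 genes with more than 1; filled points are the brightest probe set of the gene and open points the others. Of the 6 probe sets of BUB3, 5 lie above 0, and those of CDK1 lie at -0.02, -0.19 and -0.20.

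Genes of the same pathway outside the 35 were read from 6 further lists, of which 130 of 134 genes were measured. Over all 130 genes, 0 passed the limma test, the median change was -0.0053, and 17 had an unadjusted p under 0.05 (13.1%, against 12.6% of all genes), 2 higher and 15 lower. Lower values with an unadjusted p under 0.05 made up 5.83% of all genes. Of the 130 genes 129 lay above the median of all probe sets, and 14.95% of all genes above it had an unadjusted p under 0.05. Among 14 regulators of CDK1 the cell cycle inhibitor CDKN1A (p21) had the lowest value, 6.88 in DMSO and 6.55 with cortistatin A as group means, -0.34 ± 0.05 or 1.26-fold lower (limma adjusted p = 0.0679). It passed with dim genes left out (limma adjusted p = 0.0188) and under the trend and robust variance model (limma adjusted p = 0.00329), and over its alternatives the adjusted p ran up to 0.425. ARPP19, an inhibitor of the phosphatase that opposes CDK1, and the cyclin CCNF were at -0.08 each.

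Of 15 transcription factors and complex subunits that act on mitotic promoters, 4 had an unadjusted p under 0.05 (26.7%, against 12.6% of all genes), 1 higher and 3 lower, and 0 passed over all genes. LIN52 and LIN37, subunits of the MuvB core that reads the CHR, were at -0.35 ± 0.07 and -0.21 ± 0.07 (limma adjusted p = 0.143 and 0.275), and LIN54, the subunit that binds it, at 0.19 ± 0.07 (limma adjusted p = 0.353). LIN37 was at 0.22 without the _x_at and _s_at probe set types, so its sign rests on the probe set. With trend and robust variances 2 of the 15 passed, LIN52 among them (limma adjusted p = 0.0101), where 762 of all 19775 genes were called. Among 36 kinetochore and centromere genes the median was 0.02 and 4 had an unadjusted p under 0.05 (11.1%, against 12.6% of all genes). All 4 were lower, and such lower values made up 5.83% of all genes. These included HJURP, the chaperone of CENPA (-0.19), SGO1, the protector of centromeric cohesion (-0.26), and CENPT (-0.28), with limma adjusted p from 0.191 to 0.292. HJURP passed under the trend and robust variance model (adjusted p = 0.0237).

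Of 29 spindle, centrosome and cytokinesis genes, 5 had an unadjusted p under 0.05 (17.2%, against 12.6% of all genes), 1 higher and 4 lower. DEPDC1 and FAM83D, which helps the chromosomes line up on the spindle, were at -0.17 each, and KNSTRN, a kinetochore and spindle protein, was at 0.20 (limma adjusted p from 0.231 to 0.290). DEPDC1 and KNSTRN passed under that model (limma adjusted p = 0.0418 and 0.0448). In the list of 18 anaphase-promoting complex and separase genes, UBE2S, the enzyme that extends the ubiquitin chains begun by UBE2C, was at -0.14 (limma adjusted p = 0.281), CDC26 at 0.08 and ANAPC4 at -0.08. UBE2S alone had an unadjusted p under 0.05 (5.56%, against 12.6% of all genes). The 18 cohesin and condensin genes had a median of -0.04, with NCAPD3 at -0.17, CDCA5 at -0.12 and PDS5B at -0.13. Of the 18 genes 2 had an unadjusted p under 0.05 (11.1%, against 12.6% of all genes), both lower. Under the same model UBE2S and NCAPD3 passed (limma adjusted p = 0.0150 and 0.0384).

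S phase genes, read side by side, had a median of -0.02 over 21 measured genes. Of these, 4 had an unadjusted p under 0.05 (19.0%), against 12.6% of all genes and 14.95% of genes above the median of all probe sets. All 4 were lower, and such lower values made up 5.83% of all genes. None of the 21 passed over all genes. The 3 with the smallest p were E2F2, a transcription factor of S phase entry (-0.28 ± 0.06), RRM2, a subunit of ribonucleotide reductase (-0.19 ± 0.05), and CCNE2, a cyclin E (-0.31 ± 0.08), with limma adjusted p from 0.166 to 0.211. In each of them every cortistatin A array lay below every DMSO array. With trend and robust variances 4 of the 21 passed, where 762 of all 19775 genes were called. The 4 included these 3 genes (limma adjusted p = 0.0246 for E2F2, 0.00115 for RRM2 and 0.0104 for CCNE2). With the mean of probe sets 1 of the 21 passed, CCNE2, at -0.465 (limma adjusted p = 0.0277), where 76 of all 19775 genes were called. Whether these lists differ from the 35 genes was not tested.

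**Figure D5:**
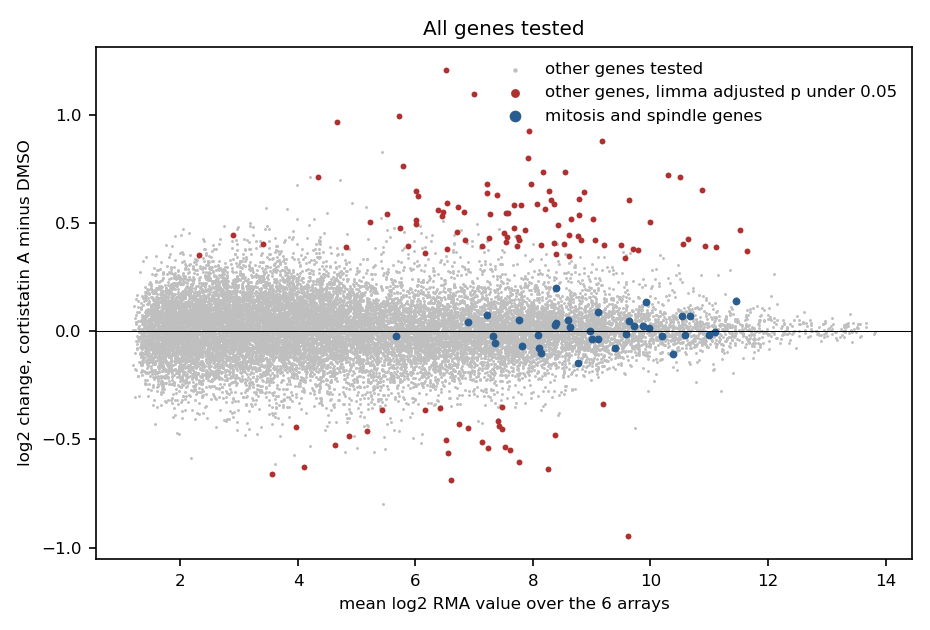
Log2 change (cortistatin A minus DMSO, y axis) against the mean log2 RMA value over the 6 arrays (x axis) for 19775 genes; blue points are the 35 mitosis and spindle genes and red points the 115 genes called. The blue points lie between -0.15 and 0.20, and none is called.

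The labelled cell type was checked against markers. Of 10 myeloid leukaemia markers listed 8 were measured, all above the median of all probe sets. FLT3 (9.43 to 9.69), LYZ (12.35 to 12.51) and MEIS1 (8.57 to 8.80) were the brightest. SPI1 (4.26 to 4.53), MPO (4.96 to 5.40) and CSF1R (5.435 to 5.705) were the dimmest. Of 8 markers of T, B, erythroid, epithelial and fibroblast cells that were measured, 5 lay above that median. The highest was COL1A1 at 6.01 to 6.19, above SPI1, MPO and CSF1R, and EPCAM was at 1.43 to 1.81. A place above the median therefore does not separate the lineages. None of the 16 markers was called between the groups, and their summed log2 values overlapped (30.7 to 31.0 in DMSO and 30.7 to 31.6 with cortistatin A for the other lineages). Across genes, Pearson correlations of array pairs were 0.9975 to 0.9979 inside a group and 0.9969 to 0.9974 between groups.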

How the data were processed

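RNA from 3 DMSO and 3 cortistatin A samples was measured on Affymetrix arrays. The authors deposited 1 log2 value per probe set and array, and RMA and the affy package are named per the submitters' processing notes, with no version. The values ran from 0.807 to 13.84. RMA in its usual form equalises array distributions, so a shift common to every transcript cannot be seen. Precision is limited by the number of arrays. Scanner files and detection calls were not used here.

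Of 54675 probe sets, 62 were controls, 41091 named 1 gene, 1801 several and 11721 none in the platform annotation. Symbols were updated through gene identifiers for 41037. Each of 19775 genes was represented by its brightest single-gene probe set (highest mean of the 6 arrays). Groups were taken from the sample titles. All genes were fitted together in R 4.3.3 by limma 3.58.1 (lmFit, then eBayes, group as the only term, two-sided, 4 residual and 2.68 prior degrees of freedom), with Benjamini-Hochberg adjustment over all genes and a threshold of 0.05. The step was tested on simulated data. Errors are limma standard errors. The genes and lists were chosen with earlier results of these data known. Values on every array were given for the 12 genes with the smallest p and for 11 core genes listed by name. In other lists the 3 genes with the smallest p were named. Promoters were given for the genes with the 4 smallest p that the RefSeq table holds and for CCNB1, CDK1 and PLK1. The alternatives were a replicate block, dim genes left out, the mean of all probe sets, no _x_at and _s_at types, a further quantile normalization, centring on 16 of 20 housekeeping genes measured, trend and robust variances, the 3′ minus 5′ index of beta-actin and GAPDH as a covariate, each array left out and, chosen after seeing the data, all single-gene probe sets tested as such. No coordinates of probe sets are given because their build is not stated. RNA was isolated with a column kit or TRIzol per the labels, without saying which for each array, so this was not tested.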

Additional observations from a re-analysis of the deposited data

How the results depend on the processing

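Limma called 0 of the 35 genes under each alternative except trend and robust variances, where it called 2, BUB1B and BUB3. Under that model the other mitosis lists gave 8 and the S phase list 4, with 762 of all 19775 genes called. The S phase list also gave 1 with the mean of probe sets. With the replicate block, the 3′ minus 5′ index or 1 array left out, at most 4 of all 19775 genes were called. The 0 among the 35 is no result in those fits. With dim genes left out the other mitosis lists gave 1, CDKN1A. The median change of the 35 genes, -0.0011 in the main fit, was -0.030 with the 3′ minus 5′ index as a covariate. It was -0.024 with the mean of probe sets and 0.022 with housekeeping centring. The index did not overlap between the groups, so that fit cannot tell it apart from the drug. Only the move with the index exceeded 0.025, the pooled SD within groups of the genes' median deviation per array. That SD is a spread of single arrays and not the error of a median change. Over all genes the 115 calls became 762 with trend and robust variances, 76 with the mean of probe sets, 321 with dim genes left out, 74 with housekeeping centring, 54 without the _x_at and _s_at types, and 0 with the replicate block or the index, where 2243 and 1805 genes had an unadjusted limma p under 0.05. With each array left out in turn they were 0 to 4. Housekeeping centring moved the median of all genes from 0.0065 to 0.029, which is under 0.1.

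Signs of some uncalled values turned as follows. With the index as a covariate CCNB1 was at -0.0092, CDC20 at -0.034, CENPF at -0.036 and MKI67 at -0.020. With the mean of probe sets KIF23 was at -0.11, MAD2L1 at -0.027 and LIN37 at 0.0062. Without the _x_at and _s_at types CENPF was at -0.24, TOP2A at 0.037, KIF23 at -0.30, MAD2L1 at -0.084 and LIN37 at 0.22. That CENPF value came from a probe set below the median of all probe sets (mean 2.69, SE 0.23). The KIF23 value came from a probe set with a mean of 4.08, near that median. PLK1 was at 0.0032 after a further quantile normalization. With housekeeping centring CDK1 was at 0.0036, KIF20A at 0.0048 and TOP2A at 0.021. Leaving out 1 array turned the sign of PLK1 (-0.094 to 0.048), TOP2A (-0.036 to 0.035), FOXM1 (-0.088 to 0.012), CDK1 (-0.060 to 0.014), BUB1 (-0.068 to 0.0064) and CCNB1 (-0.0028 to 0.063) in at least 1 of the 6 fits.

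The labels do not say whether the replicate numbers of the titles pair the samples. Deviations from the group means correlated at -0.055, 0.0095 and 0.016 for the same number, and from -0.042 to 0.035 for different numbers. These values cannot show whether the samples were handled in pairs. With the replicate block limma called 0 of all 19775 genes, so 0 among the 35 is no result about them. The limma adjusted p of BUB1B was 0.473 in that fit. The 3 arrays per group limit the sizes that could be called.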

Other observations

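The promoter words were set beside the changes as a description. The 19 genes with TTTGAA in the promoter window had a median log2 change of 0.021, between -0.15 (KIF11) and 0.20 (MKI67). The 9 genes without it had a median of -0.013, between -0.10 (CDC25B) and 0.05 (AURKB). For the 22 genes with CCAAT the median was 0.018 and for the 6 without it 0.014. At least 2 CCAAT words stood in the windows of 13 of the 28 genes (46.4%), against 11.3% of all promoters. The 114 other mitosis genes with a window held TTTGAA in 41.2% and CCAAT in 58.8%.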
